A study of Homo sapiens with 4 samples.

Results

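The 10 genes described here were grouped as immediate early genes: JUN, JUNB, JUND, FOS, FOSL1, FOSL2, EGR1, EGR3, IER2 and IER5. Their N6-methyladenosine (m6A) sites were taken from the list predicted in C643 cells, choosing every site in an exon of one of these genes on the same strand. Of 18789 listed sites, 79 lay in 7 of the 10 genes. JUN, JUNB and JUND together held 32 sites, FOSL1 and FOSL2 held 21, and IER2 and IER5 held 26. No site was listed in FOS, EGR1 or EGR3. Across the annotation 19.6% of protein-coding genes (3939 of 20046) had a listed site in an exon.

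C643 is an established cell line derived from an anaplastic thyroid carcinoma. All libraries were labelled wild type (WT), and the cells were untreated and close to confluence when poly(A)+ RNA was prepared. The sites come from miCLIP2, in which an antibody against m6A is crosslinked to RNA with UV light and reverse transcription stops at the crosslinked base. A classifier, m6Aboost, then scored each peak from its surrounding sequence, its transcript region, the C-to-T transitions and how strong its signal was within the gene. The list holds sites with a score (a fraction) above 0.5. The 4 libraries, of 3 biological replicates, gave a single pooled list, and values per replicate were not used here. No control or METTL3-depleted C643 sample was analysed here, and the reads behind each site are unknown. Region and motif are inputs of the score, so they are not independent of it, and the score is not an amount of m6A.

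AP-1 is a family of basic leucine zipper transcription factors, in which a JUN protein pairs with a FOS or another JUN protein on DNA. The EGR proteins are zinc finger transcription factors. Many members of both families, though not all, are encoded by immediate early genes. The mRNAs of such genes appear within minutes of growth factor signalling and decay fast, in part through AU-rich elements in their 3' UTRs. m6A is written by the METTL3 complex, mostly at DRACH motifs (D is A, G or T; R is A or G; H is A, C or T), and is read by proteins that affect mRNA decay. Most mRNA m6A lies in long internal exons, around the stop codon and in 3' UTRs, away from exon junctions.

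The highest-scoring site of each gene shows the sequence context on which the scores below rest. Each window holds 21 nt of the sense strand from GRCh38 with T for U, and the capitals mark the 5 bases centred on the listed adenosine. Positions along a transcript are counted from the first base of the stop codon.
JUN (chromosome 1, minus strand, 58781797, position 280, score 0.965): ggaacgttGGACTtttcgtta
JUNB (chromosome 19, plus strand, 12792914, position 101, score 0.870): ccaccctgGGACCtaggggcg
JUND (chromosome 19, minus strand, 18280313, position 130, score 0.920): gtgcccagGAACTcagagagg
FOSL1 (chromosome 11, minus strand, 65892104, position 784, score 0.979): atatttttGGACTttgtctta
FOSL2 (chromosome 2, plus strand, 28414843, position 2397, score 0.942): aacacacaGGACTgtaagagg
IER2 (chromosome 19, plus strand, 13154018, position 162, score 0.966): ccggagagGGACTctgtcccc
IER5 (chromosome 1, plus strand, 181090303, position 419, score 0.981): ggagggagGGACTttacacct
All 7 of these sites lay in a 3' UTR, and 5 of the 7 were centred on GGACT.

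**Figure D1:**
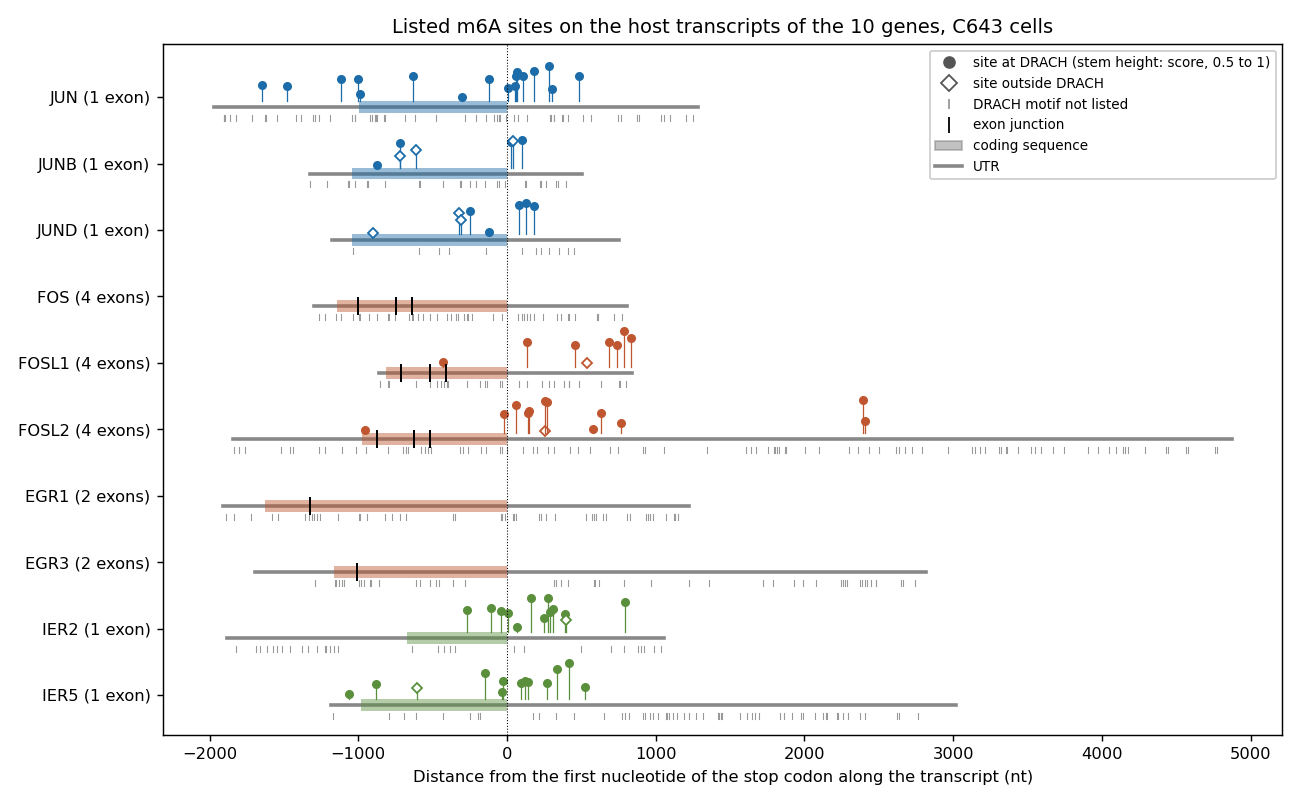
Listed m6A sites on the transcript used for each of the 10 genes, with distance from the stop codon in nt on the x axis. Stems rise with the prediction score, filled circles are DRACH sites, open diamonds are sites outside DRACH, grey ticks are DRACH motifs that were not listed, black ticks are exon junctions, and colours separate the JUN, the FOS and EGR, and the IER genes. JUN is the only JUN gene with sites before the coding sequence, and FOS, EGR1 and EGR3 carry motifs but no site.

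JUN, the archetypal AP-1 subunit, had 17 sites, the most of the 10 genes. Its single exon of 3257 nt (chr1:58780791-58784047) held 4 sites in the 5' UTR, 4 in the coding sequence and 9 in the 3' UTR. Only 71 of 3713 transcripts with a site (1.91%) held as many. JUN sites scored between 0.550 and 0.965, and their median was 0.792, against a median of 0.754 and quartiles of 0.640 and 0.847 over the whole list. Sites began at position -1645 and ended at 486, and 7 of the 17 lay within 200 nt of the stop codon. The last 800 nt of the transcript, after position 486, carried 11 DRACH motifs and no site.

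All 17 JUN sites were at DRACH, and 8 of them were at GAACT. JUN has 10 exonic GAACT motifs, of which 8 were listed (80%, 95% Wilson interval 49.0 to 94.3%). Over all transcripts with a site, most of them spliced, 16.9% of GAACT motifs were listed. This share was not counted for transcripts of 1 exon alone. At GAACT lay 10% of the sites of the list, against 47.1% (26.2 to 69.0%) in JUN. JUND and FOSL1 each listed 1 of 1 GAACT motifs, IER2 1 of 2, EGR1 0 of 3 and EGR3 0 of 4. GGACT, the most frequent pentamer of the list, was listed at 3 of 5 places in JUN. The GAACT sites of JUN were spread over the whole transcript, with 2 in the 5' UTR, 2 in the coding sequence and 4 in the 3' UTR. GAACT was singled out after its values were seen.

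A pair of JUN sites flanked the start codon 11 nt apart. The 5' UTR site scored 0.789, and the other, the first base of codon 2, scored 0.581 and was the only TGACT site of the 79. The windows are shown because both fall at the translation start.
JUN 5' UTR (chromosome 1, minus strand, 58783078, position -1001): gaagtgacGGACTgttctatg
JUN codon 2 (chromosome 1, minus strand, 58783067, position -990): ctgttctaTGACTgcaaagat
Behind the stop codon 3 JUN sites lay at positions 56, 60 and 68, with scores of 0.691, 0.835 and 0.893. The first of these gaps, 4 nt, was the smallest between any neighbouring sites of the JUN genes.

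JUNB, an AP-1 subunit that often restrains JUN, had 7 sites on its single exon of 1830 nt (chr19:12791486-12793315). The coding sequence held 4 of them and the 3' UTR 3. The scores spanned 0.525 to 0.870 (median 0.826), the lowest at 12791942. The coding sites lay between positions -871 and -611, the 3' UTR sites between 24 and 101. The 635 nt between those clusters carried 11 DRACH motifs and no site.

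JUND, the more constitutively expressed JUN gene, had 8 sites on a single exon of 1929 nt (chr19:18279694-18281622), of which 5 were coding and 3 were in the 3' UTR. The median score was 0.792, in a range of 0.507 to 0.920. The 3 sites of the 3' UTR, at positions 78, 130 and 182, scored 0.887, 0.920 and 0.868, and each was higher than every coding site of JUND. JUND listed 5 of its 17 DRACH motifs (29.4%, 13.3 to 53.1%), JUN 17 of 74 (23.0%, 14.9 to 33.7%) and JUNB 4 of 31 (12.9%, 5.13 to 28.9%). These intervals overlapped, so the order of the JUN genes by this share was not resolved by counting error alone.

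Sites outside DRACH made up 6 of the 15 sites of JUNB and JUND and none of the 17 of JUN. Over the 10 genes 69 of 79 sites were at DRACH (87.3%, 78.2 to 93.0%), near the 88.7% of the list. GGACG, which differs from DRACH only in its last base, held 5 of the 10 exceptions and 4 of these were in JUNB and JUND. GGACG made up 3.91% of the list and 4 of the 32 sites of the JUN genes (12.5%, 4.97 to 28.1%). The JUN genes held 9 exonic GGACG motifs and 4 were listed, 0 of 3 in JUN and 4 of 6 in JUNB and JUND. IER2 and IER5 listed 1 of 11, and the FOS and EGR genes 0 of 7. Over all transcripts with a site, most of them spliced, 6.93% of GGACG motifs were listed. This share was not counted for transcripts of 1 exon alone. The coding sequences of JUNB and JUND were 67.8% and 73.3% G and C, and that of JUN was 64.4%. Those of IER2 and IER5 were 69.5% and 72.5%, and each of these genes had 1 of 13 sites outside DRACH. The part of base composition in the sites outside DRACH was not tested.

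The 10 windows outside DRACH are given to show which base departs from the motif.
JUNB (chromosome 19, plus strand, 12792097, coding, score 0.646): ccgggacaGTACTtttacccc
JUNB (chromosome 19, plus strand, 12792202, coding, score 0.729): aaagccctGGACGatctgcac
JUNB (chromosome 19, plus strand, 12792853, 3' UTR, score 0.859): cctcgcttGGACGgctgggca
JUND (chromosome 19, minus strand, 18281342, coding, score 0.507): atgaagaaGGACGcgctgacg
JUND (chromosome 19, minus strand, 18280763, coding, score 0.773): gcgctcaaGGACGagccacag
JUND (chromosome 19, minus strand, 18280752, coding, score 0.678): cgagccacAGACGgtgcccga
FOSL1 (chromosome 11, minus strand, 65892351, 3' UTR, score 0.546): tgatctgcGGATCtcagcttt
FOSL2 (chromosome 2, plus strand, 28412702, 3' UTR, score 0.528): agccttggAGAACtcggtttg
IER2 (chromosome 19, plus strand, 13154255, 3' UTR, score 0.656): ttcattttGTACTgtgggctg
IER5 (chromosome 1, plus strand, 181089282, coding, score 0.642): ggagtcggGGACGtttttcag
In 6 of the 10 the only departure was G as the last base. The FOSL2 window was shifted by 1 nt from a listed GAACT, so both adenosines of that motif were listed. The GAACT adenosine scored 0.928 and its neighbour 0.528. Such pairs 1 nt apart numbered 70 among the 14105 neighbouring pairs of the list.

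JUN and JUND shared listed sites at 2 homologous positions of their proteins, found by aligning the translated coding sequences. JUN and JUND were identical at 62.8% of aligned residues, JUN and JUNB at 53.3%, and JUNB and JUND at 50.8%. The first position is codon 231 of JUN and codon 245 of JUND and JUNB, and the second is codon 291 of JUN and codon 307 of the other two. Both are shown with all 3 paralogs because the listed bases can be read against the unlisted one.
JUN codon 231 (chromosome 1, minus strand, 58782380, listed, score 0.550): ggagcctcAGACAgtgcccga
JUND codon 245 (chromosome 19, minus strand, 18280752, listed, score 0.678): cgagccacAGACGgtgcccga
JUNB codon 245 (chromosome 19, plus strand, 12792504, not listed): ggaaccgcAGACCgtgccgga
JUN codon 291 (chromosome 1, minus strand, 58782199, listed, score 0.795): aaagctcaGAACTcggagctg
JUND codon 307 (chromosome 19, minus strand, 18280565, listed, score 0.513): aagagtcaGAACAcggagctg
JUNB codon 307 (chromosome 19, plus strand, 12792691, not listed): aaggccgaGAACGcggggctg
At the first position JUNB kept a DRACH motif that was not listed, while the listed JUND pentamer was not DRACH. At the second position the JUNB pentamer was not DRACH, and the base lay in all 3 genes at position -122 from the stop codon. Of 28 aligned comparisons of 16 coding sites in the JUN and FOS families, the paralog had DRACH at the same place in 6. A comparison started from each listed site, so a position listed in both paralogs was counted from both sides. Most of the 6 were at the 2 positions shown above. No listed position was shared within the FOS family.

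FOS, the partner of JUN in the classical AP-1 dimer, had no listed site. Its 4 exons (2104 nt) carried 45 DRACH motifs, of which 26 were coding and 16 in the 3' UTR, and none was listed. Taking 3 counts as the limit that a count of 0 allows, this allows a share of up to 6.67%, and the Wilson interval drawn in the plot of listed shares reaches 7.87%. EGR1, a zinc finger factor induced by serum and growth factors, had 0 of 47 motifs listed (up to 6.38% by the 3-count limit and 7.56% by Wilson). EGR3, its paralog, had 0 of 49 (up to 6.12% and 7.27%). The Wilson limits of FOS and EGR1 lie above the 7.29% of motifs listed over all transcripts with a site, so these counts do not set both genes below that share. RNA levels of these genes were not analysed here, so a lack of m6A and too few reads cannot be told apart.

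FOSL1, the FOS-related subunit also called FRA-1, had 8 sites on 4 exons (1702 nt, chr11:65892049-65900388), of which 7 lay in the 3' UTR. The lowest score was 0.546, the median 0.813 and the highest 0.979. Only 1 of the 8 sites lay within 200 nt of the stop codon, and 4 of the 8 lay between positions 686 and 836. The last of them, with a score of 0.883, was 3 nt from the annotated transcript end. The single coding site, at codon 128, was also the lowest DRACH score of the gene at 0.563.

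FOSL2, or FRA-2, had 13 sites on 4 exons (6713 nt, chr2:28392858-28417317), and 11 of them lay in a 3' UTR of 4869 nt. Its scores had a median of 0.763 and lay between 0.528 and 0.942. Exon 4, the last, held 12 of the 13. From position 764 the next site was 1633 nt away, across 18 unlisted DRACH motifs, and a pair 11 nt apart then stood at 2397 and 2408 with scores of 0.942 and 0.653. Another 36 DRACH motifs followed over 2463 nt without a site. FOSL2 also listed 4 of its 5 GAACT motifs, with scores of 0.529, 0.754, 0.928 and 0.763.

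Against the intronless JUN genes, the spliced FOS and EGR genes had a smaller share of their sites in the coding sequence. It was 13 of 32 (40.6%, 25.5 to 57.7%) in the JUN genes and 3 of 21 (14.3%, 4.98 to 34.6%) in FOSL1 and FOSL2, and over all coding transcripts 42.1% of sites were coding. The intervals overlapped. The 3' UTR held 15 of the 32 JUN sites (46.9%, 30.9 to 63.6%) and 18 of the 21 (85.7%, 65.4 to 95.0%), against 55.4% over all coding transcripts with a site, a value inside the interval of the JUN genes. The intervals of both groups did not overlap, but they did when JUNB, JUND, FOSL1 or FOSL2 was left out, at a score of at least 0.7, and when IER2 and IER5 were grouped with the JUN genes by exon number (55.2%, 42.5 to 67.3%). JUN alone supplied the 4 sites of the 5' UTR (12.5% of the sites of the JUN genes, against 2.49% over all coding transcripts with a site), and without JUN the coding share of JUNB and JUND was 60%. The FOSL2 transcript has 981 coding nt and 4869 nt of 3' UTR, JUN 996 and 1284 nt, and the part of region length in these shares was not tested.

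The median distance from the stop codon was -122 nt (95% interval of the median -634 to 68) for the JUN genes and 458 nt (139 to 743) for FOSL1 and FOSL2. Neither median was stable: for the JUN genes it crossed the stop codon to 40 nt (-611 to 110) at a score of at least 0.7, and was -251 nt without JUN and -56.5 nt without JUND. It was 32 nt for all genes of 1 exon. Without FOSL1 the median of FOSL2 was 257 nt (62 to 764), an interval that overlaps the one of the JUN genes, and without FOSL2 that of FOSL1 was 611.5 nt (-430 to 836). In the JUN genes 14 of 32 sites were at most 200 nt from the stop codon (43.8%, 28.2 to 60.7%), and in FOSL1 and FOSL2 5 of 21 were (23.8%, 10.6 to 45.1%), where the whole list on coding transcripts had 33.3%. These intervals overlapped.

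Relative to the motifs present, 26 of 122 exonic DRACH motifs were listed in the JUN genes (21.3%, 15.0 to 29.4%) and 19 of 281 in the FOS and EGR genes (6.76%, 4.37 to 10.3%). Over all transcripts with a site it was 7.29%. That comparison counts the 3 genes without sites. In FOSL1 and FOSL2 alone 19 of 140 were listed (13.6%, 8.86 to 20.2%), and that interval overlaps the one of the JUN genes. Among all coding transcripts with a site, 12.9% of motifs were listed on those of 1 exon and 7.20% on spliced ones. Pooled, the JUN genes stood above both and FOSL1 and FOSL2 above the spliced ones. Neither held for each gene alone. Without JUN the share of the JUN genes was 18.8% (10.2 to 31.9%), which covers 12.9%. FOSL2 alone had 11.7% (6.79 to 19.3%), which covers 7.20%. In the 3' UTR the JUN genes stood above transcripts of 1 exon (28.0%, 17.5 to 41.7%, against 9.43%). In the coding sequence they did not (17.4% against 20.4%). The part of motif position in the pooled shares was not tested.

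**Figure D2:**
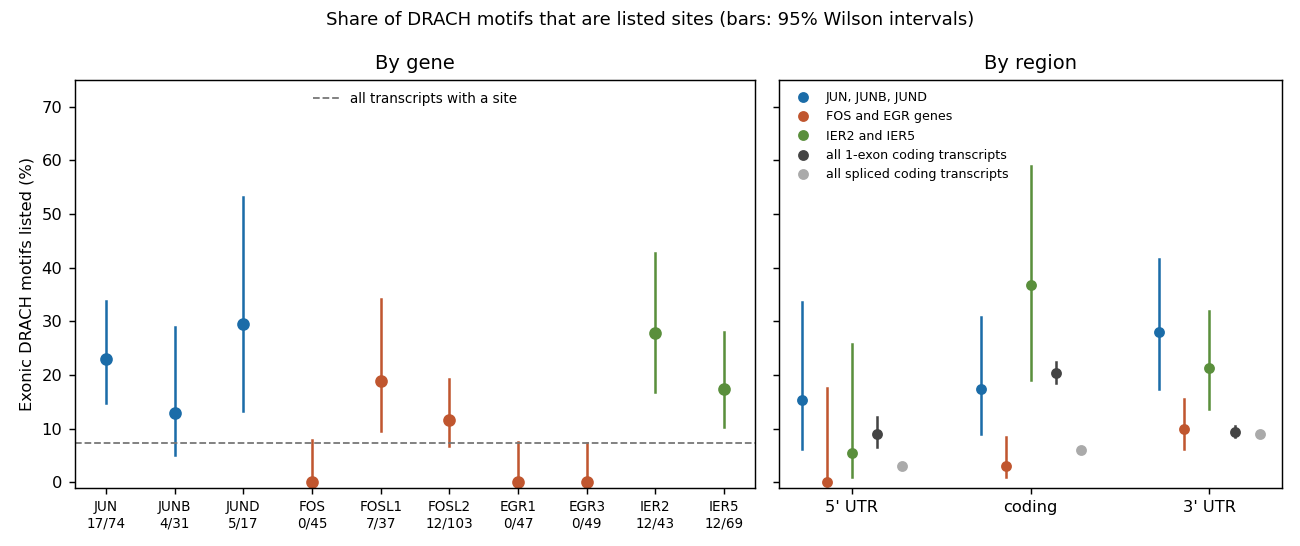
Percent of exonic DRACH motifs that were listed sites, by gene (left, listed over total below each name) and by transcript region (right), with 95% Wilson intervals as bars. The dashed line is the 7.29% of all transcripts with a site, and JUN, JUND, FOSL1, IER2 and IER5 lie above it with their whole interval, while FOS, EGR1 and EGR3 are at 0.

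Within the coding sequence 8 of 46 DRACH motifs were listed in the JUN genes (17.4%, 9.09 to 30.7%) and 3 of 36 in FOSL1 and FOSL2 (8.33%, 2.87 to 21.8%), against 6.29% over coding transcripts with a site. Among coding transcripts with a site, it was 20.4% on those of 1 exon and 6.08% on spliced ones. In spliced transcripts 2.43% of coding motifs within 100 nt of a junction and 18.1% of those farther away were listed. FOSL1 and FOSL2 listed 2 of 21 near a junction and 1 of 15 farther away, counts too small to order. The near ones were the FOSL1 site at codon 128, 22 nt from a junction, and the FOSL2 site at codon 8, 80 nt from one. They scored 0.563 and 0.529. These 2 of 3 coding sites compare with 30.4% of coding sites on spliced transcripts of the whole list.

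In the 3' UTR 14 of 50 motifs were listed in the JUN genes (28.0%, 17.5 to 41.7%) and 16 of 93 in FOSL1 and FOSL2 (17.2%, 10.9 to 26.1%), against 9.05% over coding transcripts with a site. The 3' UTR sites of the JUN genes all lay in the first 500 nt after the stop codon, where 14 of 39 motifs were listed (35.9%, 22.7 to 51.6%). Beyond, 0 of 11 were listed (up to 25.9%), and all 11 of these motifs were in JUN itself. In FOSL1 and FOSL2 it was 7 of 23 in the first 500 nt (30.4%, 15.6 to 50.9%) and 9 of 70 beyond (12.9%, 6.91 to 22.7%). Over all coding transcripts with a site 20.4% and 4.27% were listed in these windows. On those of 1 exon it was 25.3% (22.5 to 28.4%) and 2.98%, both inside the intervals of the JUN genes. On spliced ones it was 20.2% and 4.31%. This split at 500 nt was chosen after the values were seen.

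The scores of the JUN genes and of FOSL1 and FOSL2 overlapped. Their medians were 0.794 (0.691 to 0.837) and 0.791 (0.627 to 0.881). In both, the median was higher in the 3' UTR than in the coding sequence, at 0.859 and 0.678 in the JUN genes and 0.795 and 0.563 in FOSL1 and FOSL2. On all coding transcripts these medians were 0.801 and 0.707. At GGACT the medians were 0.887 and 0.883.

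**Figure D3:**
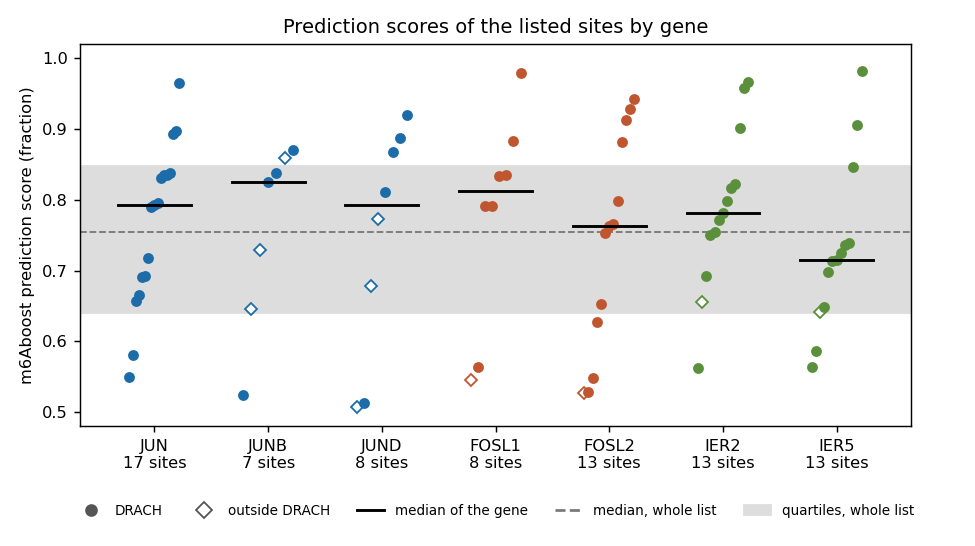
m6Aboost prediction score (a fraction) of every listed site by gene, with the gene's median as a black line and the median and quartiles of the whole list as a dashed line and grey band. Filled circles are DRACH sites and open diamonds are not, and the scores of all 7 genes cover much the same range.

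Gaps between neighbouring sites overlapped in the same way. The median gap was 97 nt (47 to 168) over 29 pairs of the JUN genes and 79 nt (41 to 305) over 19 pairs of FOSL1 and FOSL2. Without JUN the first of these was 61 nt. At most 50 nt separated 9 of 29 and 5 of 19 pairs, and 22 of 72 over the 10 genes (30.6%), near the 32.5% of the list. The widest gaps differed more, at 635 nt in JUNB and 1633 nt in FOSL2. The closest pairs in JUNB, at positions -721 and -716, were 5 nt apart, and FOSL2 had a pair 1 nt apart.

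**Figure D4:**
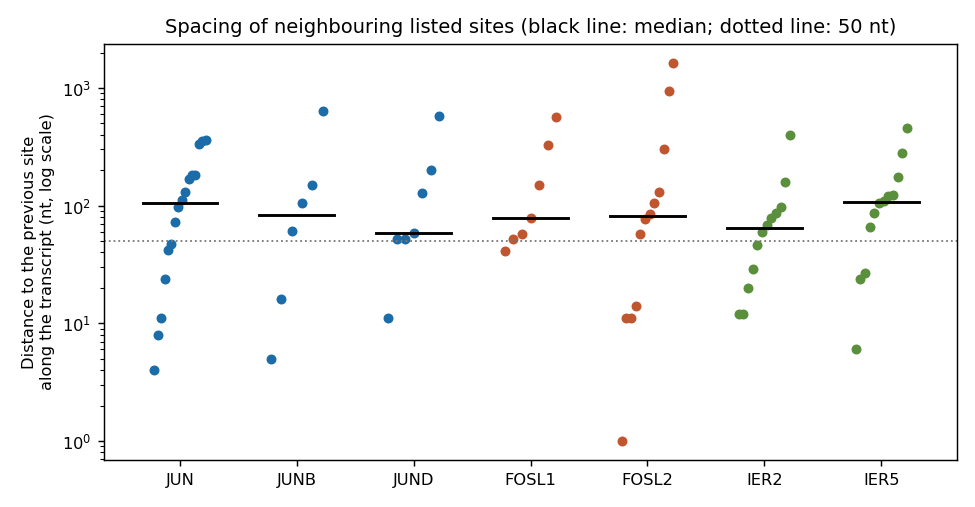
Distance in nt, on a log axis, from each listed site to the previous one on the same transcript, by gene, with the median as a black line and 50 nt as a dotted line. The gaps of the 7 genes overlap, and FOSL2 has both the smallest and the widest gap.

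IER2, a nuclear protein of the early growth factor response, had 13 sites (chr19:13151975-13154908, 2934 nt), 3 coding and 10 in the 3' UTR. The scores spanned 0.562 (at 13153921) to 0.966, and the median was 0.781. Of its 43 DRACH motifs 12 were listed (27.9%, 16.7 to 42.7%), and none of the 16 in the 5' UTR was. Sites ran almost without a pause from position -268 to 399, with 12 sites and 2 unlisted motifs between them. The transcript used has 1 exon, while the annotated canonical transcript has 2. On the canonical one every site lay 645 to 1708 nt from the junction. That junction lies 645 nt before the site at position -268. The 16 unlisted 5' UTR motifs, at positions -1820 to -1135 on the transcript used, all lie upstream of it. The part of this choice of transcript in the 27.9% and in the unlisted 5' UTR was not tested. IER2 was also counted as a gene of 1 exon wherever genes were grouped by exon number.

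IER5, which acts on heat shock factor 1 through a phosphatase, had 13 sites on a single exon of 4201 nt (chr1:181088700-181092900), with 1 in the 5' UTR, 5 coding and 7 in the 3' UTR. The median score, 0.715, was the lowest of the 7 genes, and the range was 0.564 (at 181088825, in the 5' UTR) to 0.981. A pair at codons 316 and 318 was 6 nt apart. No site followed position 524, although 45 DRACH motifs lay in the remaining 2492 nt. IER5 also listed none of its 6 GAACT motifs, whereas 4 of its 6 GGACT motifs were listed.

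Over the 10 genes 19 of 36 GGACT motifs were listed (52.8%, 37.0 to 68.0%), where 25.8% were over all transcripts with a site. Among coding transcripts with a site, 43.9% (39.0 to 48.9%) of GGACT motifs were listed on those of 1 exon and 25.5% on spliced ones. Of the 36 motifs 21 were on members of 1 exon, where 14 were listed (66.7%, 45.4 to 82.8%), and these 1-exon intervals overlapped. By group, 5 of 8 GGACT motifs were listed in the JUN genes, 5 of 9 in FOSL1 and FOSL2 and 9 of 13 in IER2 and IER5. All 10 genes except IER2 carry ATTTA, the core of AU-rich elements, in the 3' UTR, from 1 copy in JUND, FOSL1 and EGR1 to 9 in FOSL2 and 10 in IER5. Of 50 sites in the 3' UTRs, 1 had ATTTA starting within 50 nt (2%, 0.354 to 10.5%), where 3.8% did over the list. Within 100 nt it was 8% of the 50.

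Of 35 other genes of the AP-1, EGR and serum response pathway, 17 had listed sites (48.6%), against 19.6% of all protein-coding genes, expressed or not. They held 107 sites in all, with a median of 6 where there were any, against 3 over all transcripts with a site. MAFK, a small MAF partner of basic leucine zipper factors, had 12, IER5L 11, the serum response coactivator MRTFA 11, IER3 10, and MAFF and the EGR corepressor NAB2 9 each. The genes without a listed site included EGR2 and EGR4, FOSB, the nuclear receptors NR4A1, NR4A2 and NR4A3, and BATF, BATF2, ELK3, ELK4, MAF, MAPK8, MAPK9, MCL1, NAB1 and ZFP36L2. Together with FOS, EGR1 and EGR3, none of the FOS, FOSB and EGR genes had a site, whereas every JUN and FOSL gene did. Expression was not analysed, so it could not be set beside this pattern.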

How the data were processed

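Poly(A)+ RNA of untreated C643 cells was profiled by miCLIP2 in 4 libraries from 3 biological replicates, 1 of them run as 2 technical libraries. Per the submitters' processing notes reads were processed with STAR 2.7.3a, SAMtools 1.9, UMI-tools 1.0.0 and bedtools 2.27.1 on GRCh38.p12, and the study's methods name PureCLIP for peak calling and GENCODE 31 for annotation. The authors deposited 1 list of predicted sites whose score is a fraction, pooled over replicates; depth per site is unknown, and intervals cover counting error only.

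Here sites were placed on GENCODE 44 exons (GRCh38) on the same strand. The host was the longest spliced transcript of support level up to 3 and annotation level up to 2, a coding one in coding genes. DRACH motifs, regions, junctions and gaps were counted on it. Percentages have 95% Wilson intervals, a share of 0 also has the limit of 3 counts over the motifs, and medians have order-statistic intervals. Genes, sites and motifs are not replicates, so no test was run. The members, the lists and the rule for named sites (highest and lowest score per gene, closest pairs, sites outside DRACH, homologous codons) were chosen with earlier results of these data known. As no protein table was used, paralogs were aligned with mafft 7.526 on translated host coding sequences. Alternatives were a score of at least 0.7, RAC or GGACT motifs, canonical transcripts, other window sizes, grouping by exon number and leaving out each gene. Restricting the share to genes with a site, coding shares to DRACH sites, and all alternatives for the 3' UTR share of sites were chosen after seeing the data. Some genes of the wider pathway list are counted but not reported here by name. Placement was tested on simulated positions. Software was Python 3.11.15, numpy 2.4.6, scipy 1.17.1, Biopython 1.88 and matplotlib 3.10.9.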

Additional observations from a re-analysis of the deposited data

How the results depend on the processing

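Of 116 alternatives to 19 results, 105 left a value inside the 95% interval of the reported one or a count labelled unchanged. Another 11 moved the value and 0 reversed a value whose interval excluded 0. Most of the results cannot be negative and so could not reverse. Among the 105, the count of listed sites fell from 79 to 53 at a score of at least 0.7. Some of the 105 could not move a value. Leaving out FOS, EGR1 or EGR3, which have no site, kept every value counted over sites alone. Grouping by exon number kept the FOS and EGR group as it was. Canonical transcripts gave the same values for the JUN genes and for the FOS and EGR genes. The 95% intervals are also wide. Inside them the median distance to the stop codon of the JUN genes went from -122 to 40 nt (score of at least 0.7) or 32 nt (grouped by exon number), that of the FOS and EGR genes to 257 nt without FOSL1, the median gap of the JUN genes from 97 to 61 nt without JUN, the coding share of the FOS and EGR genes from 14.3 to 7.14% with a score of at least 0.7, the junction share from 9.52 to 5.88% on canonical transcripts and 4.76% within 50 nt, and the ATTTA share from 2 to 8% within 100 nt. With a score of at least 0.7 the DRACH share rose to 94.3%, the share of DRACH motifs listed in the JUN genes fell to 14.8%, and the junction share of sites of spliced members, the ATTTA share and the number of shared homologous positions each fell to 0. The higher score threshold removes sites by construction. RAC in place of DRACH gave 94.9%. Counting GGACT motifs alone gave 62.5% listed in the JUN genes and 33.3% in the FOS and EGR genes. The share of the FOS and EGR genes was 13.6% in members with a site, an alternative chosen after seeing the data. Leaving out each gene in turn gave coding shares of the JUN genes from 33.3 to 60% (60% without JUN) and listed shares of the FOS and EGR genes from 3.93% (without FOSL2) to 8.19%. For the other moves the cause was not tested. Single replicates could not be left out, since the site list is pooled. No paired analysis was possible because all libraries belong to a single untreated group.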
